A study of Mus musculus with 9 samples.

Results

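The 10 genes described here encode the inducible parts of the machinery that cuts proteins into peptides and loads them onto MHC class I molecules. They are Psmb8, Psmb9, Psmb10, Psme1, Psme2, Tap1, Tap2, Tapbp, Tapbpl and Erap1. They were taken by symbol from a table of 35321 genes, and all 10 were found. The study injected LLC cells, a mouse lung carcinoma line, under the skin of the right flank, in male mice of the C57BL/6 strain that were 4 to 5 weeks old, and treatment into the peritoneum began 5 days later. RNA from the tumours was measured in 3 groups of 3 samples, which received PBS as vehicle, 0.1 mg/kg digoxin or 1 mg/kg digoxin. The drug is a cardiac glycoside, an inhibitor of the sodium-potassium pump. The labels give the same injected line and the same strain of mouse for every group, and a tumour sample holds both line cells and cells of the host. Whether each sample is a mouse of its own is not stated in the labels. The p-values therefore measure only the spread between samples, which may be technical. How long the mice were treated is not given in the sources used here.

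The standard proteasome degrades tagged proteins with 3 catalytic subunits, encoded by Psmb5, Psmb6 and Psmb7. Interferons induce Psmb8, Psmb9 and Psmb10, whose products replace them and form the immunoproteasome, which yields more peptides with the ends that class I molecules prefer. Psme1 and Psme2 encode the subunits of the PA28 cap, which opens the core. Tap1 and Tap2 form the transporter that pumps peptides into the endoplasmic reticulum, where tapasin (Tapbp) and the related editor TAPBPR (Tapbpl) help class I molecules to select them, and the aminopeptidase Erap1 trims them. The complexes together decide which peptides a tumour cell or a leukocyte shows to CD8 T cells.

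Several of these genes lie beside each other. In the RefSeq gene order of mouse build GRCm38.p6, Psmb9, Tap1, Psmb8 and Tap2 are 4 consecutive genes on chromosome 17, inside the MHC class II region, between H2-DMb1 and H2-Ob. Tapbp is also on chromosome 17. Psme1 and Psme2 are on chromosome 14 with Emc9 between them. Psmb10 is on chromosome 8, Tapbpl on chromosome 6 and Erap1 on chromosome 13. Psmb9 and Tap1 are read in opposite directions from starts that are 225 bases apart, so 1 short stretch is the promoter of a catalytic subunit and of a transporter subunit. The stretch is shown in capitals in the RefSeq promoter of Tap1 below (chr17:34187306-34187585, plus strand, 250 bases before the start and 30 after it). The other 3 windows, of the same length, are those in which an interferon motif was found, with the match in capitals. They are the promoters of Psmb8 (chr17:34197945-34198224), Psme1 (chr14:55578244-55578523) and Erap1 (chr13:74639603-74639882), all on the plus strand.
Tap1: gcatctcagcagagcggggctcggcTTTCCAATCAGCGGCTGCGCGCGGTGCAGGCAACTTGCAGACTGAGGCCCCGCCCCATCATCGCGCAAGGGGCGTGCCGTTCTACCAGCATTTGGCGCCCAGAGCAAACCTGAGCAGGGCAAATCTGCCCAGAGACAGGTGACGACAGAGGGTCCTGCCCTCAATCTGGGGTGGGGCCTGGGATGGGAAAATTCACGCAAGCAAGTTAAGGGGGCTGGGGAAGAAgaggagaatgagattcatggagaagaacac
Psmb8: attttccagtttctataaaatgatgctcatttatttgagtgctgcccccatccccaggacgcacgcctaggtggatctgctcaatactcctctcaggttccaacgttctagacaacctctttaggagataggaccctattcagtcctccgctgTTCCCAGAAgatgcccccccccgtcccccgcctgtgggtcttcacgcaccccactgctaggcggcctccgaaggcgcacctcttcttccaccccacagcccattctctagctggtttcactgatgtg
Psme1: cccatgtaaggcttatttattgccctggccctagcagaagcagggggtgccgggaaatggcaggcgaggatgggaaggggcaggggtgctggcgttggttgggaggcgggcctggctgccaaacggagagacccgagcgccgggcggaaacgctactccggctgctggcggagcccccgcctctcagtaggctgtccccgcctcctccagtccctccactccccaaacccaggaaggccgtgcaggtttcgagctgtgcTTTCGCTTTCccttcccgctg
Erap1: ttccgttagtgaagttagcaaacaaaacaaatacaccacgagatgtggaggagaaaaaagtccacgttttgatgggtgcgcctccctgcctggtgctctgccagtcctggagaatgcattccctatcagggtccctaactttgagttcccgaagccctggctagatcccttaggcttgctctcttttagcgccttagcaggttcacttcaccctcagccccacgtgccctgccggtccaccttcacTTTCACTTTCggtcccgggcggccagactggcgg

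RefSeq windows were at hand for 8 of the 10 genes, with Tap2 and Tapbpl the others. Both strands of the 300 bases around each start were searched for the gamma-activated site TTCNNNGAA, a motif of genes that respond to interferon-gamma, and for the interferon-stimulated response element, the letters that IRF proteins and ISGF3 bind, taken as a pair of GAAA copies with any 2 bases between them. The first was found in 1 of the 8 genes, Psmb8, as TTCCCAGAA with its first base 97 bases before the start. The second was found in 2 of the 8, in Psme1 as TTTCGCTTTC from base 10 after the start and in Erap1 as TTTCACTTTC from 4 bases before it, both being matches of the minus strand. Among 32851 RefSeq promoters of the same length, 8.3% held the first and 3.44% the second. The matches did not overlap each other. A match is a description of letters in the window, and a window without one says only that these letters are not in it.

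The deposited values were FPKM, which are reads scaled by gene length and by the depth of the library. The depth behind them was 48649867 to 51810956 reads in the vehicle samples, 42870997 to 43319883 in those given 0.1 mg/kg and 40517062 to 42252370 in those given 1 mg/kg. All 10 genes passed the filter on low values, and each was read between 729 and 24616 times in a sample, so counting error was at most 3.7% of a value. Across all tested genes, libraries correlated at 0.990 to 0.994 within vehicle, at 0.962 to 0.984 within 0.1 mg/kg and at 0.953 to 0.990 within 1 mg/kg. The keratin genes that mark a carcinoma line set the groups apart. Krt18 stood at 63.0, 43.1 and 60.9 FPKM with vehicle, at 1.62, 16.8 and 0.932 FPKM at 0.1 mg/kg and at 8.84, 1.06 and 1.03 FPKM at 1 mg/kg. Its partner Krt8 stood at 4.13, 2.45 and 1.70 FPKM with vehicle, at 92.8, 58.7 and 105 FPKM at 0.1 mg/kg and at 116, 126 and 103 FPKM at 1 mg/kg. Epcam was at most 0.149 FPKM and Krt7 at most 0.199 FPKM in every sample, so these 2 markers of epithelium were near 0. Within the digoxin groups, replicate 2 at 0.1 mg/kg and replicate 1 at 1 mg/kg had the most Krt18, and the same 2 libraries were the lowest of their group for 10 and for 9 of the 10 genes described here. Whether the vehicle and digoxin tumours hold the same line cells cannot be told from these values, and this bears on every fold change over vehicle given below. The part that the makeup of the tumours has in the results was not tested.

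All of the genes but Erap1 were higher in digoxin tumours than in vehicle tumours, with Psmb10 short of the threshold at the higher dose. At 0.1 mg/kg 9 of the 10 rose and none fell, where 42.2% of the 13687 genes tested were called, 21.6% higher and 20.7% lower. The higher dose gave 8 of the 10 that rose and none that fell, where 45.9% of all genes were called, 20.7% higher and 25.2% lower. The call is an adjusted p under 0.05 by limma over all tested genes. The median log2 fold change of the 10 genes was 1.40 at 0.1 mg/kg and 1.07 at 1 mg/kg, where the median over all tested genes was 0.02 and -0.04. All 3 values lay above all vehicle values for 9 of the 10 genes at each dose, against 32.3% of all genes at the lower dose and 25.2% at the higher one. The reverse, all digoxin values below all vehicle values, was seen for none of the 10 genes, against 27.9% of all genes at 0.1 mg/kg and 33.1% at 1 mg/kg. Without the 2 digoxin libraries of intermediate Krt18, which were the lowest of their groups for most of the 10 and were left out after seeing the data, 9 of the 10 rose at each dose. In that fit the share of all genes that rose was 32% at the lower dose and 31.6% at the higher one. Both comparisons share the 3 vehicle samples. In RNA from whole tumours, more cells of a type that expresses a gene and more RNA per cell cannot be told apart.

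**Figure D1:**
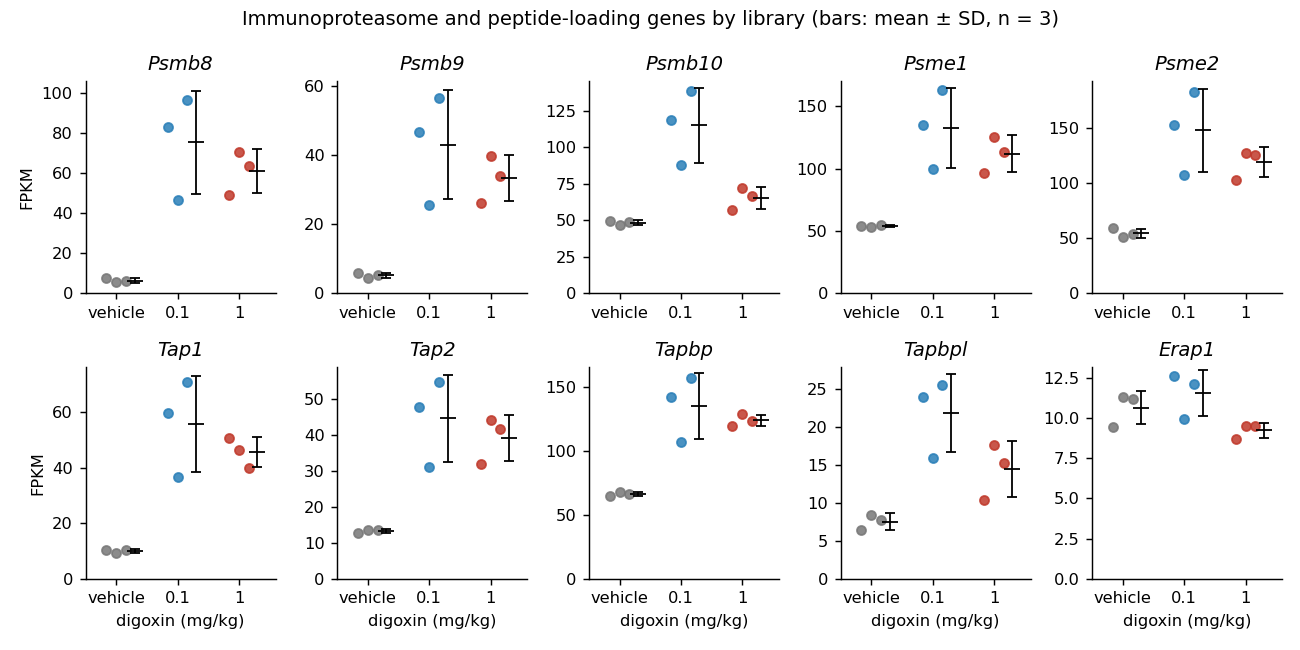
FPKM of the 10 genes in each library (points, 3 per group) with the group mean and SD (bars) for vehicle and for digoxin at 0.1 and 1 mg/kg. Every digoxin point lies above every vehicle point in 9 panels, and Erap1 stays between 8.70 and 12.6 FPKM throughout.

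The catalytic subunits of the immunoproteasome showed both the largest and some of the smaller differences. Psmb8, which encodes the chymotrypsin-like subunit, stood at 7.54, 5.34 and 5.92 FPKM with vehicle, at 83.0, 46.4 and 96.1 FPKM at 0.1 mg/kg and at 48.9, 70.4 and 63.4 FPKM at 1 mg/kg. The lowest digoxin library was thus several times the highest vehicle library. On the log2(FPKM + 1) scale, on which all fold changes are given unless stated, Psmb8 rose by 3.34 at 0.1 mg/kg (SE 0.26, limma adjusted p = 0.000221) and by 3.09 at 1 mg/kg (SE 0.26, adjusted p = 0.000245). The ratio of mean FPKM was 12.0 at 0.1 mg/kg and 9.72 at 1 mg/kg. Ranked by log2 fold change, Psmb8 was number 35 at 0.1 mg/kg and number 65 at 1 mg/kg among the 13687 genes.

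Psmb9, which replaces the caspase-like subunit, stood at 5.71, 4.37 and 5.26 FPKM with vehicle, at 46.7, 25.5 and 56.3 FPKM at 0.1 mg/kg and at 26.2, 39.5 and 34.0 FPKM at 1 mg/kg. Its groups at either dose did not overlap those with vehicle. It rose by 2.78 at 0.1 mg/kg (SE 0.27, limma adjusted p = 0.000428) and by 2.47 at 1 mg/kg (SE 0.27, adjusted p = 0.000541). Psmb10, which replaces the trypsin-like subunit, had a high level without digoxin, at 49.7, 46.7 and 48.5 FPKM with vehicle. It stood at 119, 87.7 and 139 FPKM at 0.1 mg/kg and at 56.8, 72.2 and 66.5 FPKM at 1 mg/kg. Here all 3 groups were apart from each other, with 1 mg/kg between the other two. Psmb10 rose by 1.21 at 0.1 mg/kg (SE 0.16, limma adjusted p = 0.0012). At 1 mg/kg its log2 fold change was 0.42 (95% interval 0.06 to 0.78, adjusted p = 0.0574), which missed the threshold. Without replicate 1 at 1 mg/kg it was 0.51 (adjusted p = 0.0323), and without replicate 2 at 0.1 mg/kg, which changes only the shared spread, the adjusted p was 0.0115, as it was 0.0353 without replicate 3 at 0.1 mg/kg. With both of the libraries of intermediate Krt18 left out, a choice made after seeing the data, the adjusted p was 0.0011. These are the settings that favour a call. Of 21 alternatives Psmb10 passed at 1 mg/kg in 6 and missed the threshold in 15. Its log2 fold change went down to 0.34 and its limma adjusted p up to 0.164.

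The PA28 genes moved as a pair. Psme1, the alpha subunit, stood at 53.7, 53.0 and 54.5 FPKM with vehicle, at 135, 99.4 and 164 FPKM at 0.1 mg/kg and at 96.6, 126 and 114 FPKM at 1 mg/kg. Psme2, the beta subunit, stood at 58.7, 50.6 and 53.3 FPKM with vehicle, at 153, 107 and 183 FPKM at 0.1 mg/kg and at 103, 127 and 125 FPKM at 1 mg/kg. No digoxin library of either gene reached down to a vehicle library. Psme1 rose by 1.26 at 0.1 mg/kg (SE 0.17, limma adjusted p = 0.00134) and by 1.04 at 1 mg/kg (SE 0.17, adjusted p = 0.00227). Psme2 rose by 1.40 at 0.1 mg/kg (SE 0.18, adjusted p = 0.00115) and by 1.11 at 1 mg/kg (SE 0.18, adjusted p = 0.00224). The FPKM ratio of Psme1 to Psme2 stayed between 0.884 and 1.05 in all 9 samples. The mouse genome also holds a copy of Psme2, listed as Psme2b, so reads may be split between the copies. Psme2b, looked up for that reason, rose by 1.36 at 0.1 mg/kg (adjusted p = 0.00171) and by 1.09 at 1 mg/kg (adjusted p = 0.00325).

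Both subunit genes of the peptide transporter rose, Tap1 further than Tap2. Tap1 stood at 10.5, 9.26 and 10.3 FPKM with vehicle, at 59.8, 36.8 and 70.9 FPKM at 0.1 mg/kg and at 50.8, 46.4 and 39.8 FPKM at 1 mg/kg. It was the 1 gene of the 10 that replicate 1 at 1 mg/kg did not have at its lowest in that group, but at its highest. It rose by 2.32 at 0.1 mg/kg (SE 0.21, limma adjusted p = 0.000349) and by 2.08 at 1 mg/kg (SE 0.21, adjusted p = 0.000444). Tap2 stood at 12.6, 13.5 and 13.6 FPKM with vehicle, at 47.9, 31.3 and 54.9 FPKM at 0.1 mg/kg and at 32.0, 44.1 and 41.7 FPKM at 1 mg/kg. The lowest digoxin library, 31.3 FPKM, was well above the highest vehicle library. It rose by 1.64 at 0.1 mg/kg (SE 0.20, adjusted p = 0.000911) and by 1.49 at 1 mg/kg (SE 0.20, adjusted p = 0.00106). The FPKM ratio of Tap1 to Tap2 was below 1 in all 3 vehicle samples, at 0.828, 0.685 and 0.757. It was 1.25, 1.18 and 1.29 at 0.1 mg/kg, and it was 1.59, 1.05 and 0.955 at 1 mg/kg, so only 1 digoxin sample was below 1.

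Of the peptide editors, tapasin was the gene with the highest level of the 10 with vehicle. Tapbp stood at 64.9, 67.6 and 66.5 FPKM with vehicle, at 142, 106 and 157 FPKM at 0.1 mg/kg and at 119, 128 and 123 FPKM at 1 mg/kg. It rose by 1.00 at 0.1 mg/kg (SE 0.13, limma adjusted p = 0.00115) and by 0.89 at 1 mg/kg (SE 0.13, adjusted p = 0.00143). Tapbpl, which edits peptides outside the loading complex, stood at 6.37, 8.46 and 7.78 FPKM with vehicle, at 23.9, 15.9 and 25.5 FPKM at 0.1 mg/kg and at 10.4, 17.6 and 15.2 FPKM at 1 mg/kg. Its lowest library at 1 mg/kg was close to its highest with vehicle. It rose by 1.40 at 0.1 mg/kg (SE 0.22, adjusted p = 0.00238) and by 0.83 at 1 mg/kg (SE 0.22, adjusted p = 0.0155). The call at 1 mg/kg was lost without vehicle replicate 1 (adjusted p = 0.0558), without replicate 2 at 1 mg/kg (0.0528) and without replicate 3 at 1 mg/kg (0.0512).

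Erap1, the trimming peptidase, was the exception. It stood at 9.43, 11.3 and 11.2 FPKM with vehicle, at 12.6, 9.93 and 12.1 FPKM at 0.1 mg/kg and at 8.70, 9.48 and 9.48 FPKM at 1 mg/kg. The groups at 0.1 mg/kg and with vehicle overlapped, and so did those at 1 mg/kg and with vehicle. The log2 fold change was 0.11 at 0.1 mg/kg (95% interval -0.14 to 0.35, limma adjusted p = 0.443) and -0.18 at 1 mg/kg (95% interval -0.43 to 0.06, adjusted p = 0.185). Both intervals exclude a doubling, a log2 fold change of 1. Over the 9 samples the standardised log2 level of each of the other 9 genes correlated with the mean of the remaining genes at Pearson r between 0.906 and 0.987, and that of Erap1 at 0.174. These coefficients describe samples that fall into separate groups and share their libraries, so they largely restate the group means.

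**Figure D2:**
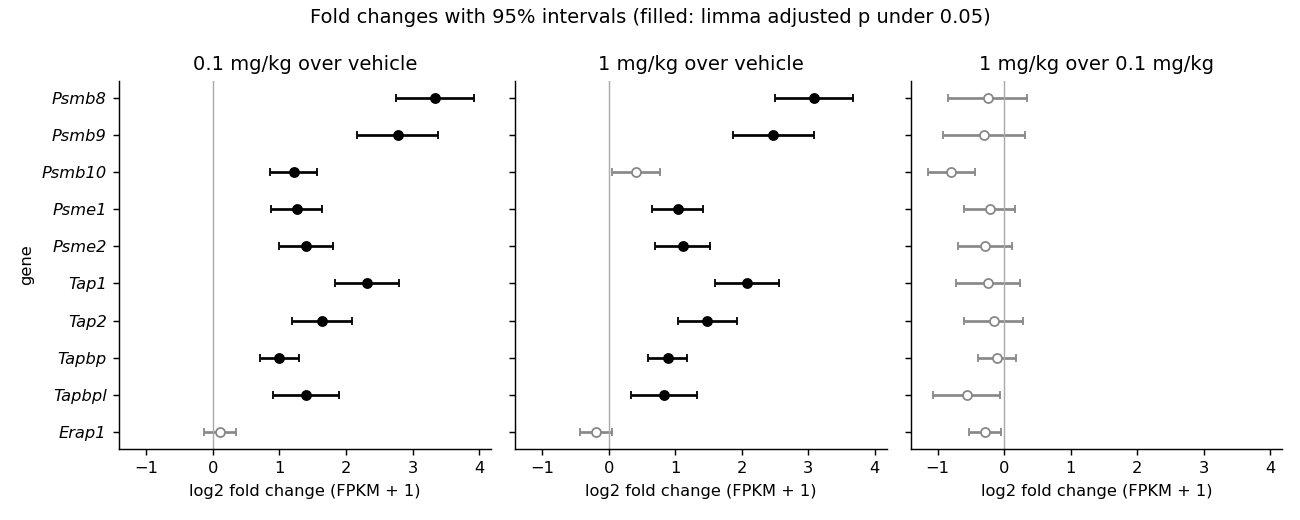
Log2 fold change of each gene on the FPKM + 1 scale with its 95% interval, for 0.1 mg/kg over vehicle, 1 mg/kg over vehicle and 1 mg/kg over 0.1 mg/kg (filled: limma adjusted p under 0.05). Psmb8 lies farthest right in both comparisons with vehicle at 3.34 and 3.09, and all 10 points lie left of 0 between the doses.

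FPKM is scaled by length, so levels can be set against each other within a sample. With vehicle the order of mean FPKM was Tapbp (66.3 ± 1.37), Psme2 (54.2 ± 4.10), Psme1 (53.7 ± 0.739), Psmb10 (48.3 ± 1.52), Tap2 (13.3 ± 0.551), Erap1 (10.6 ± 1.04), Tap1 (10.0 ± 0.660), Tapbpl (7.54 ± 1.07), Psmb8 (6.27 ± 1.14) and Psmb9 (5.11 ± 0.681), each as mean ± SD over 3 samples. Psme2 and Psme1 overlapped in this order, as did Erap1 with Tap1, Tapbpl with Psmb8 and Psmb8 with Psmb9. Of these pairs, only Psmb8 and Psmb9 kept the same order within every vehicle sample. At 0.1 mg/kg Psmb8, last but one with vehicle, was in the fifth place at 75.2 ± 25.8 FPKM, and Erap1 was last at 11.5 ± 1.42. The ranges of Psmb8 there overlapped those of Psmb10, Tap1, Tap2 and Psmb9. Within every sample of that dose, however, Psmb8 was below Psmb10 and above Tap1, Tap2 and Psmb9. Psme2 led there at 148 ± 38.0 FPKM, and its range overlapped that of Tapbp (135 ± 25.8). Within every sample of that dose Psme2 was above Tapbp, but by little in replicate 2 (107.2 against 106.4 FPKM). Tapbp led again at the higher dose at 124 ± 4.50 FPKM, overlapping Psme2 (119 ± 13.6). Psmb8 at 60.9 ± 11.0 FPKM overlapped Psmb10 at 65.1 ± 7.79 there, though Psmb8 was the lower of the pair within every sample. Erap1 was last at 9.22 ± 0.446.

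Between the doses no gene of the 10 passed the test, where 2 genes of the 13687 (0.0146%) did, both lower at 1 mg/kg. All 10 means were lower at 1 mg/kg than at 0.1 mg/kg, and so were those of 61.0% of all genes. The median log2 fold change of the 10 was -0.27, against -0.05 over all genes. An unadjusted p under 0.05 was reached by 3 of the 10 (Psmb10, Tapbpl and Erap1) and by 1856 genes in all. By limma-voom on reads recovered from the FPKM values, again none of the 10 passed. Psmb10 had 56.8 to 72.2 FPKM at 1 mg/kg, against 87.7 to 139 FPKM at 0.1 mg/kg, and Erap1 had 8.70 to 9.48 FPKM, against 9.93 to 12.6 FPKM. For these 2 genes the doses did not overlap, a pattern that 11% of all genes showed in this direction and 6.05% in the other. The log2 fold change of Psmb10 was -0.79 (95% interval -1.15 to -0.43, limma adjusted p = 0.108), that of Tapbpl -0.57 (95% interval -1.07 to -0.07, adjusted p = 0.308) and that of Erap1 -0.29 (95% interval -0.53 to -0.05, adjusted p = 0.282). Psmb8 gave -0.25 (95% interval -0.84 to 0.34, adjusted p = 0.74), an interval that allows a difference in either direction. Leaving out replicate 2 at 0.1 mg/kg, the lowest of its group for all 10 genes, made Psmb10 pass at -0.97 (adjusted p = 0.0164). Leaving out replicate 1 at 1 mg/kg as well, a choice made after seeing the data, gave -0.88 for Psmb10 (adjusted p = 0.00610) and -0.59 for Tap1 (adjusted p = 0.0379), where 2.38% of all genes were called lower.

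Set against the constitutive subunit it replaces, each immunoproteasome subunit had a higher ratio in every digoxin tumour. The FPKM ratio of Psmb8 to Psmb5 was 0.0801, 0.0687 and 0.0733 with vehicle, then 0.815, 0.464 and 0.917 at 0.1 mg/kg, while the higher dose gave 0.570, 0.760 and 0.661. Psmb8 thus stayed below Psmb5 in every sample, by far more with vehicle. The ratio of Psmb9 to Psmb6 was 0.0654, 0.0613 and 0.0714 with vehicle, then 0.358, 0.222 and 0.404 at 0.1 mg/kg, while the higher dose gave 0.268, 0.290 and 0.260. The ratio of Psmb10 to Psmb7 was already above 1 with vehicle, at 1.92, 2.06 and 2.04, and was 4.77, 3.64 and 6.07 at 0.1 mg/kg, while the higher dose gave 2.11, 3.17 and 2.46. In all 3 pairs every digoxin sample exceeded every vehicle sample. The geometric mean ratio of Psmb8 to Psmb5 was 9.51 times as high at 0.1 mg/kg as with vehicle and 8.92 times as high at 1 mg/kg. For Psmb9 to Psmb6 the figures were 4.82 and 4.14, and for Psmb10 to Psmb7 2.36 and 1.27. An exact two-sided permutation test of each gave p = 0.1, the smallest that 3 samples against 3 allow, and 0.129 after adjustment over the 9 tests of these ratios. Between the doses the ratio of Psmb10 to Psmb7 at 1 mg/kg was 0.538 times that at 0.1 mg/kg (exact p = 0.1, adjusted 0.129). The same comparison gave exact p = 0.8 for Psmb8 to Psmb5 (a log2 difference of -0.09) and 0.4 for Psmb9 to Psmb6 (-0.22).

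**Figure D3:**
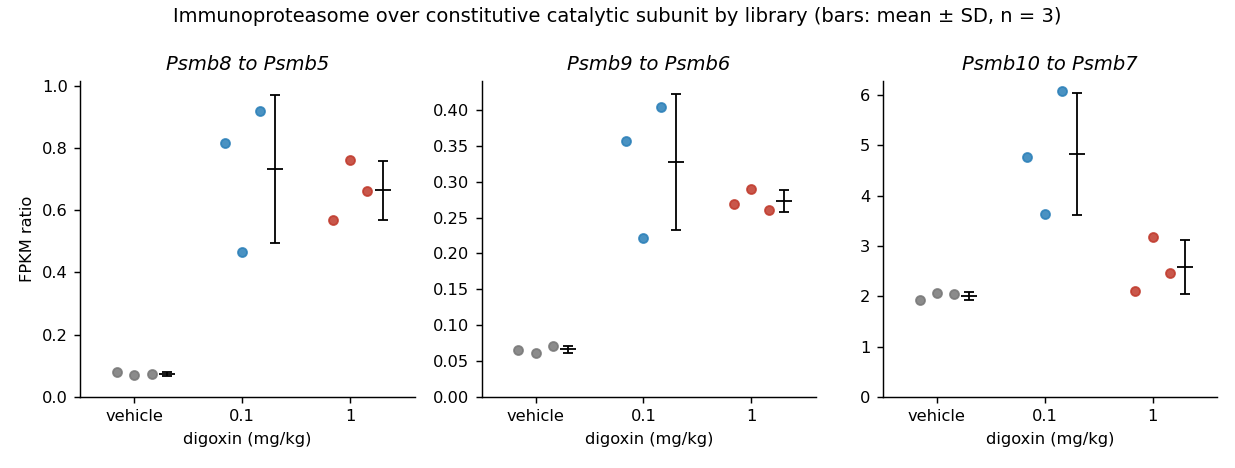
FPKM ratio of each immunoproteasome subunit to its constitutive counterpart in each library (points) with mean and SD (bars), by digoxin dose. All 6 digoxin points exceed the 3 vehicle points in each panel, and the third panel shows Psmb10 to Psmb7 lower at 1 mg/kg (2.11 to 3.17) than at 0.1 mg/kg (3.64 to 6.07).

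Among the immunoproteasome subunits themselves, the FPKM ratio of Psmb8 to Psmb9 was 1.32, 1.22 and 1.12 with vehicle, then 1.78, 1.82 and 1.71 at 0.1 mg/kg, while the higher dose gave 1.86, 1.78 and 1.86. The ratio of Tapbpl to Tapbp was 0.0982, 0.125 and 0.117 with vehicle, then 0.168, 0.149 and 0.163 at 0.1 mg/kg, while the higher dose gave 0.0870, 0.137 and 0.123, so it stood apart from vehicle at the lower dose only and overlapped vehicle at 1 mg/kg. These ratios, like those of Tap1 to Tap2 and Psme1 to Psme2, were chosen after their values were seen and are given without a test.

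Other proteasome genes were split, some rising and some falling. Of the 3 constitutive catalytic genes, Psmb6 rose by 0.72 at 0.1 mg/kg (limma adjusted p = 0.00543) and by 0.63 at 1 mg/kg (adjusted p = 0.00794). Psmb5 rose by 0.28 at 0.1 mg/kg (adjusted p = 0.0305), a call that is lost with quantile normalisation, with rescaling to TPM and with equal medians, and gave 0.12 at 1 mg/kg (adjusted p = 0.279). Psmb7 gave -0.01 and 0.08 and did not pass at either dose. Of the 11 other genes of the core particle, 2 rose and none fell at 0.1 mg/kg, and 1 rose and 3 fell at 1 mg/kg, with median log2 fold changes of 0.02 and -0.07. The split depends on the scaling, since with rescaling to TPM 1 rose and 3 fell at 0.1 mg/kg, and 1 rose and 5 fell at 1 mg/kg. Psma7 rose by 0.68 at 0.1 mg/kg and by 0.56 at 1 mg/kg. Psma3 gave -0.32 at 0.1 mg/kg (adjusted p = 0.0664) and fell by 0.42 at 1 mg/kg (adjusted p = 0.0237). The regulatory particle, which unfolds tagged substrates, had 4 of 18 genes higher and 8 lower at 0.1 mg/kg, and 5 higher and 7 lower at 1 mg/kg. Psmd7 fell by 0.68 at 0.1 mg/kg and by 0.65 at 1 mg/kg, while the ubiquitin receptor gene Adrm1 rose by 0.48 and by 0.59.

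A contrast within the caps was clear. Psme3 encodes PA28 gamma, the nuclear relative of the PA28 subunits. Its level was 62.3 ± 1.34 FPKM with vehicle, 37.6 ± 4.86 FPKM at 0.1 mg/kg and 39.9 ± 1.34 FPKM at 1 mg/kg (SD, n = 3 each). It fell by 0.72 at 0.1 mg/kg (SE 0.09, limma adjusted p = 0.00115) and by 0.63 at 1 mg/kg (SE 0.09, adjusted p = 0.00153), the opposite of Psme1 and Psme2. Among the assembly factors, Psmg4 rose by 0.92 and by 0.82, and Pomp, the maturation factor needed to build immunoproteasomes, rose by 0.50 at 0.1 mg/kg (adjusted p = 0.00376) and by 0.27 at 1 mg/kg (adjusted p = 0.0354, lost with rescaling to TPM). In all, 2 of these 8 activator and assembly genes rose and 1 fell at each dose (with rescaling to TPM, 2 rose and 3 fell at 0.1 mg/kg, and 1 rose and 2 fell at 1 mg/kg). With quantile normalisation and with equal medians, 2 rose and 2 fell at each dose.

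The chaperones that class I loading shares with other glycoproteins gave 0 of 6 genes higher and 1 lower at 0.1 mg/kg, and 1 higher and 2 lower at 1 mg/kg, against 0 and 3, and then 0 and 2, with rescaling to TPM. The 1 higher at 1 mg/kg was also lost with quantile normalisation and with equal medians. Ganab, the glucosidase subunit, fell by 0.67 and by 0.70, and Canx (calnexin) gave -0.15 and 0.02 with no call. Of 7 other peptidases that trim or destroy peptides, none rose and 3 fell at 0.1 mg/kg, and 1 rose and 3 fell at 1 mg/kg. With quantile normalisation, with rescaling to TPM and with equal medians alike, 5 fell at 0.1 mg/kg. In the main fit Lap3, Thop1 and Blmh were the 3 that fell at 0.1 mg/kg, by 0.53, 0.55 and 0.44. They fell at 1 mg/kg by 0.76, 0.44 and 0.28. Erap1 was thus not alone among peptidases in not rising with the transporter.

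**Figure D4:**
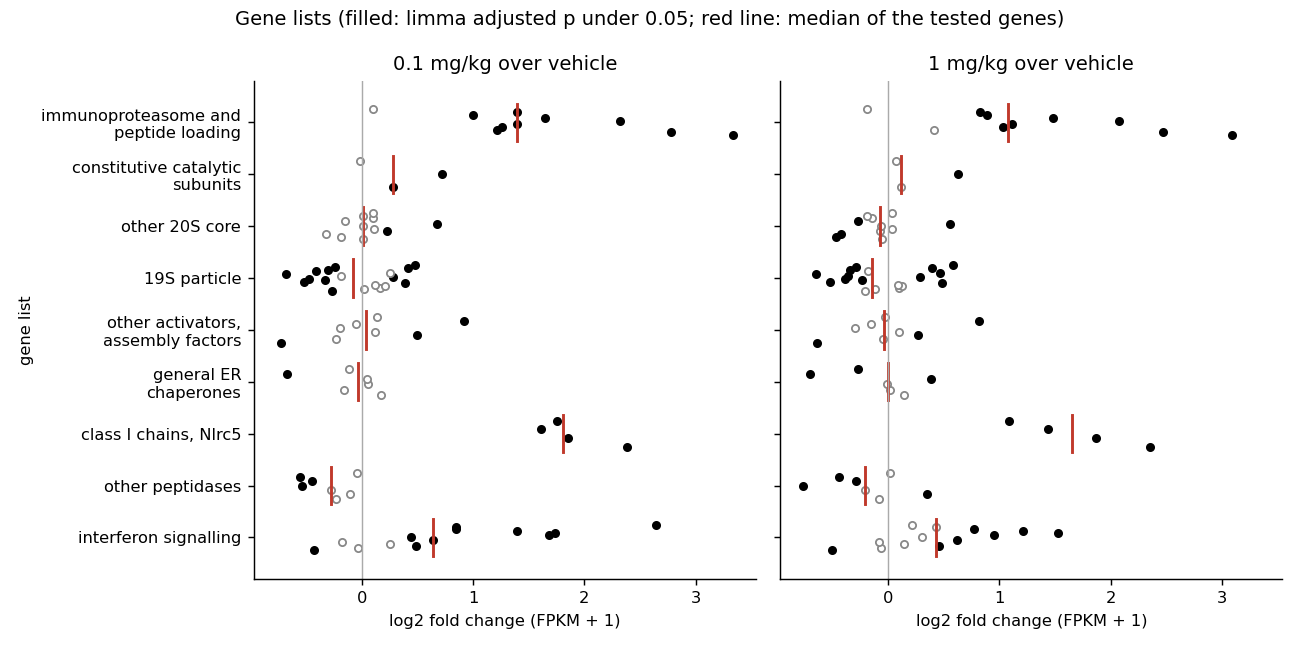
Log2 fold change over vehicle (FPKM + 1 scale) of every tested gene in the 9 lists at 0.1 mg/kg and at 1 mg/kg, with the median of each list as a red line and calls as filled points. The 10 genes (medians 1.40 and 1.07), the class I chains with Nlrc5 (1.80 and 1.65) and interferon signalling (0.64 and 0.43) lie to the right, and the 4 other proteasome lists have medians between -0.15 and 0.28.

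The class I molecules that receive the peptides rose at both doses, 4 of 4 genes at each with Nlrc5, the transactivator of class I genes. H2-K1 rose by 2.39 at 0.1 mg/kg and by 2.35 at 1 mg/kg, and H2-D1 by 1.85 and by 1.87, though reads of these near-identical genes may be shared. B2m, the light chain, stood at 940, 894 and 917 FPKM with vehicle, at 3067, 1951 and 3673 FPKM at 0.1 mg/kg and at 2774, 2434 and 2267 FPKM at 1 mg/kg, with no overlap. It rose by 1.61 (limma adjusted p = 0.00119) and by 1.44 (adjusted p = 0.0015). Nlrc5 stood at 5.08, 5.01 and 5.48 FPKM with vehicle, at 22.3, 13.4 and 26.1 FPKM at 0.1 mg/kg and at 10.4, 14.0 and 12.2 FPKM at 1 mg/kg. It rose by 1.76 (adjusted p = 0.000919) and by 1.09 (adjusted p = 0.00443).

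Of 13 tested genes of interferon signalling, 9 rose and 1 fell at 0.1 mg/kg, and 6 rose and 1 fell at 1 mg/kg. With rescaling to TPM, 8 rose and 2 fell at 0.1 mg/kg, and with quantile normalisation or equal medians 9 rose and 2 fell there. The receptor gene Ifngr1 was the 1 that fell at both doses, by 0.43 and by 0.50. Stat2, a subunit of the ISGF3 complex, rose by 1.74 at 0.1 mg/kg (limma adjusted p = 0.00222) and by 1.53 at 1 mg/kg (adjusted p = 0.00292). Irf1, a direct inducer of Tap1 and Psmb9, rose by 1.39 (adjusted p = 0.0019) and by 1.21 (adjusted p = 0.00259). Irf1 stood at 23.3, 25.6 and 25.3 FPKM with vehicle, at 77.4, 44.8 and 84.9 FPKM at 0.1 mg/kg and at 55.0, 63.5 and 57.8 FPKM at 1 mg/kg, so neither dose overlapped vehicle. Ifng itself was below the filter and was not tested. It stood at 0.222, 0.139 and 0.119 FPKM with vehicle, at 1.12, 0.593 and 1.21 FPKM at 0.1 mg/kg and at 0.110, 0.247 and 0.152 FPKM at 1 mg/kg, where it overlapped vehicle. Cxcl9, a chemokine gene induced by interferon-gamma and shown here after its values were seen, rose by 2.65 at 0.1 mg/kg (adjusted p = 0.0085) and gave 0.22 at 1 mg/kg (adjusted p = 0.777). Each vehicle library and each library of the higher dose held only 6 to 14 reads of Ifng. The libraries of the lower dose held 62, 33 and 68 reads. From so few reads, a small difference between vehicle and the higher dose cannot be judged. Irf1 and Stat2 were called higher at that dose, as were 8 of the 10 genes, while Cxcl9 was not. Whether interferon-gamma has a part in the levels of the 10 genes was not tested.

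**Figure D5:**
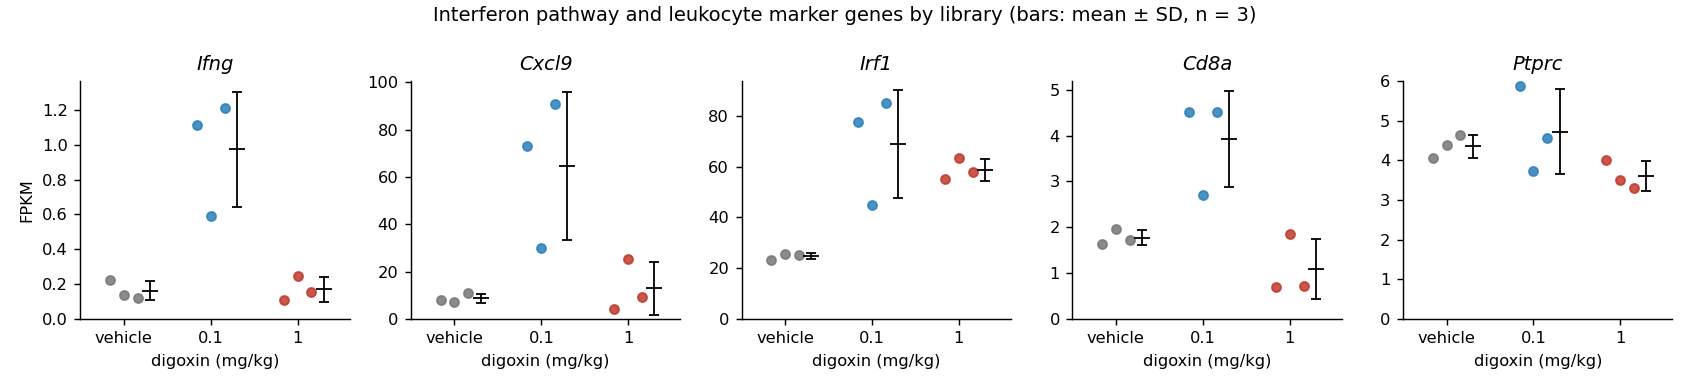
FPKM of 3 interferon pathway genes and 2 leukocyte marker genes in each library (points) with mean and SD (bars), by digoxin dose. Ifng, Cxcl9 and Cd8a are high at 0.1 mg/kg and overlap vehicle at 1 mg/kg, while Irf1 lies above vehicle at both doses. Ptprc overlaps vehicle at 0.1 mg/kg and lies just below it at 1 mg/kg (at most 4.02 FPKM, against 4.05 FPKM or more).

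The genes whose pattern over the 9 samples was most like the mean standardised level of the 10 were, by Pearson r, Clcn7 (0.997), Znfx1 (0.996), Nlrc5 (0.995), Batf2 (0.993), Gbp4 (0.993), Shtn1 (0.992), Gbp5 (0.990) and Trim12c (0.988). These values are a description over 9 samples in 3 groups. Gbp4 and Gbp5 encode interferon-induced GTPases and Batf2 an interferon-induced transcription factor, while Clcn7 encodes a lysosomal chloride transporter. Batf2 stood at 1.24, 1.24 and 1.33 FPKM with vehicle, at 18.5, 10.7 and 24.5 FPKM at 0.1 mg/kg and at 6.65, 10.4 and 8.87 FPKM at 1 mg/kg. Like all 10 genes, and 61.0% of all tested genes, it was lower at 1 mg/kg than at 0.1 mg/kg in its mean. The difference was not called (limma adjusted p = 0.199), and 1 value of the 1 mg/kg samples was within 0.3 FPKM of the lowest at 0.1 mg/kg.

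The direct neighbours of the clustered genes gave values of their own. H2-DMb1, a class II editor next to Psmb9, rose by 1.02 at 0.1 mg/kg (limma adjusted p = 0.0271) and gave -0.13 at 1 mg/kg (adjusted p = 0.751), while the 4 genes of the cluster rose at both doses. H2-Ob, on the far side of Tap2, was below the filter. Emc9, between Psme1 and Psme2, gave 0.66 at 0.1 mg/kg (adjusted p = 0.0554) and rose by 0.78 at 1 mg/kg (adjusted p = 0.0291).

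Leukocytes and line cells can both express these genes, so markers of cell types are given beside them. Of 4 general leukocyte genes, 3 rose at the lower dose and 1, Cd53, at the higher dose. Their summed level was 153 to 179 FPKM with vehicle, 206 to 291 FPKM at 0.1 mg/kg and 188 to 216 FPKM at 1 mg/kg. Ptprc, which encodes the common leukocyte antigen CD45, averaged 4.35 ± 0.292 FPKM with vehicle, 4.73 ± 1.08 FPKM at 0.1 mg/kg and 3.61 ± 0.374 FPKM at 1 mg/kg (SD, n = 3 each), and passed at neither dose (limma adjusted p = 0.651 and 0.219). T cell genes rose in 4 of 5 tested at 0.1 mg/kg, of which 2 also passed with quantile normalisation. None rose at 1 mg/kg, and Cd4 fell. Their sum was 8.36 to 9.61 FPKM with vehicle, 13.1 to 23.3 FPKM at 0.1 mg/kg and 3.95 to 11.9 FPKM at 1 mg/kg. Cd8a averaged 1.77 ± 0.165 FPKM with vehicle, 3.92 ± 1.05 FPKM at 0.1 mg/kg and 1.09 ± 0.662 FPKM at 1 mg/kg. No natural killer gene passed the filter, and their sum was low in all samples. It was 1.15 to 1.27 FPKM with vehicle, 1.85 to 2.54 FPKM at 0.1 mg/kg and 0.810 to 1.28 FPKM at 1 mg/kg. Of its genes only Klrk1 lay above vehicle at 0.1 mg/kg, with a mean of 1.43 against 0.443 FPKM. Ncr1 had a lower mean there, 0.297 against 0.447 FPKM, and both Ncr1 and Klrb1c overlapped vehicle.

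Macrophage genes rose in 3 of 5 at each dose, and 2 of 5 fell at 1 mg/kg. Their sum was 199 to 254 FPKM with vehicle, 306 to 401 FPKM at 0.1 mg/kg and 283 to 337 FPKM at 1 mg/kg. Neutrophil genes rose in 3 of 5 at 0.1 mg/kg and 4 of 5 at 1 mg/kg, with sums of 46.7 to 161 FPKM with vehicle, 114 to 646 FPKM at 0.1 mg/kg and 431 to 955 FPKM at 1 mg/kg. Of the dendritic cell genes 2 were tested and 1, Clec9a, fell at each dose. It averaged 7.37 FPKM with vehicle, 1.40 FPKM at 0.1 mg/kg and 0.809 FPKM at 1 mg/kg. The other, Itgax, was not called, with -0.17 (limma adjusted p = 0.629) and -0.68 (adjusted p = 0.069), though it passed at 1 mg/kg with rescaling to TPM. Dendritic cell sums, which include Clec9a, were 13.5 to 17.4 FPKM with vehicle, 7.96 to 9.88 FPKM at 0.1 mg/kg and 5.08 to 6.54 FPKM at 1 mg/kg. Cd79a, the 1 B cell gene tested, rose at both doses, and the B cell sum was 0.393 to 0.728 FPKM with vehicle, 9.01 to 10.7 FPKM at 0.1 mg/kg and 2.62 to 13.6 FPKM at 1 mg/kg. Fibroblast genes gave 1 of 4 higher and 2 lower at each dose, endothelial genes 0 of 3 called at either dose, and skeletal muscle genes 2 of 5 higher at each dose. The sum for muscle was 47.3 to 113 FPKM with vehicle, 160 to 300 FPKM at 0.1 mg/kg and 78.9 to 911 FPKM at 1 mg/kg. Of the epithelial genes, Krt8 rose and Krt18 fell at each dose. The part that any of these cell types has in the levels of the 10 genes was not tested.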

How the data were processed

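The authors deposited FPKM values of 35321 genes in 9 samples. The submitters' processing notes name fastp 0.22.0, HISAT2 2.2.1 and GRCh38, a human build, although the gene symbols are those of mouse. Neither read counter nor annotation is given in the sources used here. Libraries, per the labels' protocols, were made from poly(A)-selected RNA and sequenced in pairs.

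The deposited FPKM were put on the scale log2(FPKM + 1). A gene was tested where 3 or more of the 9 samples reached 1 FPKM, which held for 13687 genes and all 10 described. Groups were compared with limma 3.58.1 in R 4.3.3 with a mean-variance trend, 1 fit of all 9 samples with 1 mean per group and no replicate block, two-sided, with Benjamini-Hochberg adjustment over all tested genes and a threshold of 0.05. Residual degrees of freedom were 6 and prior degrees of freedom 2.71. Ratios of subunits were compared by exact two-sided permutation of log2 FPKM ratios.

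Depth was recovered from the spacing of the FPKM values: 99.95% of tested genes gave whole reads within 0.03 reads in every sample. Recovered reads served for depths, counting errors and a limma-voom alternative only.

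The genes, the 8 lists of related genes and the 11 marker lists were chosen with earlier results of these data known. All 10 genes and the 3 constitutive catalytic genes were named. From each other list, genes were named from the 3 with the smallest p at 0.1 mg/kg, though not always all of them, and B2m, Nlrc5, Irf1 and Ifng always. Left out above were Psma4 (0.22 at 0.1 mg/kg, limma adjusted p = 0.0273), Psmd3 (-0.47, adjusted p = 0.00292) and Uggt1 (-0.12, adjusted p = 0.228). The call of Psma4 was lost with quantile normalisation, with rescaling to TPM and with equal medians. Another gene that the rule takes is not reported here. The 8 tested genes most correlated with the mean standardised level of the 10 were named, leaving out predicted genes and pseudogenes. Genes named beyond this rule are Ifngr1, Cxcl9, Psme2b and the neighbours on the chromosome, besides markers of cell types. Promoters came from RefSeq GRCm38.p6. The code was tested on simulated data. The alternatives tried were the pseudocount, the filter, quantile normalisation, TPM, equal medians, limma-voom, no trend, fits of 2 groups, a replicate block and leaving out samples.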

Additional observations from a re-analysis of the deposited data

How the results depend on the processing

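At 0.1 mg/kg against vehicle 9 of the 10 genes were called higher under every alternative tried. At 1 mg/kg against vehicle 7 to 9 were, over the fits that left out 1 sample. Of 210 values for single genes in each comparison, 209 kept their direction and side of the threshold at 0.1 mg/kg, 201 at 1 mg/kg and 205 between the doses. At 0.1 mg/kg Erap1, which was not called, went to -0.00023 with rescaling to TPM. Between the doses, without replicate 3 at 0.1 mg/kg, Tap2 gave 0.0061 and Tapbp 0.0075, neither called, and over all the fits that left out 1 sample they ranged down to -0.39 and -0.27. At 1 mg/kg Psmb10 also passed with equal medians (adjusted p = 0.0465), in a fit of the 2 groups alone (0.014) and without replicate 3 at 0.1 mg/kg (0.0353). In 15 of 21 alternatives it did not pass. With a pseudocount of 1 the log2 difference of the Psmb8 to Psmb5 ratio at 1 mg/kg was 2.96 instead of 3.16, and that of Psmb9 to Psmb6 1.84 instead of 2.05. Leaving out 1 sample gave 3387 to 7053 called genes at 0.1 mg/kg, where all samples gave 5781, and 4028 to 7351 at 1 mg/kg, where all samples gave 6277. Between the doses it gave 0 to 121 called genes and 0 to 1 of the 10, the highest counts being those without replicate 2 at 0.1 mg/kg. A mean of at least 5 FPKM gave 4159 called genes at 1 mg/kg, with fewer genes tested. Between the doses, where 2 genes were called, 0 were with a pseudocount of 0.1, in a fit of the 2 groups alone and with the replicate block, 1 where the filter was a mean of 5 FPKM, with equal medians and with no trend, and 10 with no filter. Leaving out replicate 2 at 0.1 mg/kg and replicate 1 at 1 mg/kg together gave 447 genes and 2 of the 10. The cause of these differences was not tested. At 0.1 mg/kg 2952 genes were higher and 2829 lower, against 2368 and 3790 with rescaling to TPM and 2403 and 3552 with quantile normalisation. Rescaling to TPM shifted the median log2 fold change of all genes to -0.09 at 0.1 mg/kg, and the 10 genes still gave 9 and 8 calls.

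Same-numbered samples of different groups deviated from their group means with correlations of -0.44 to 0.28. In 7 of 18 cases a sample correlated best with its own number in another group. No pairing by number was seen, though 3 samples per group are too few to exclude it. A replicate block gave 4967 called genes at 0.1 mg/kg, 5541 at 1 mg/kg and 0 between the doses, with 9, 8 and 0 of the 10.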
